A study of Mus musculus with 6 samples.

Results

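Amino acid supply and the integrated stress response were followed through 40 genes in CD8+ T cells of the mouse, the cytotoxic arm of the adaptive immune system. The members are genes linked to the transcription factor ATF4, genes of serine and one-carbon metabolism, and amino acid transporters, taken by name from a list. All 40 were among the 14481 genes of the deposited count table, and all 40 passed the filter on low counts that left 14319 genes for testing. RNA came from wild-type cells that had been sorted and then stimulated for 1 day with antibodies to CD3 and CD28 and with IL-2. Conditioned medium (CM) from astrospheres was then added for 2 days, and RNA was taken on day 3. One group received medium of astrospheres named pSTAT3+ and the other that of astrospheres named pSTAT3-, after the phosphorylated form of the transcription factor STAT3. They are called STAT3+ CM and STAT3- CM here, with 3 libraries each; the T cells carried no stated alteration in either group, the labels do not say from which animals or cells the astrospheres came, and libraries of cells without CM were not analysed here.

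Cells short of an amino acid, or with misfolded protein in the endoplasmic reticulum, activate kinases that phosphorylate the translation factor eIF2. General protein synthesis then slows while translation of ATF4 increases, and ATF4 turns on genes that import and make amino acids, together with genes that end or escalate the response. Activated T cells grow and divide quickly and are known to depend on imported leucine, glutamine, cystine and serine. ATF4 binds DNA as a dimer with C/EBP proteins, at a composite site called the C/EBP-ATF response element.

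The core of that element, TGATGNAA, was looked for on both strands of RefSeq promoter windows that run from 250 bases before to 50 bases after each start (GRCm38.p6). Of the 40 members, 35 had a window, and 10 of these 35 (28.6%) held at least 1 match: Asns, Chac1, Got1, Jdp2, Nupr1, Pycr1, Slc1a4, Slc7a11, Trib3 and Vldlr. The share was 2.75% among 10262 tested genes with a window and 4.51% among all 27025 genes with a window. Counted by window it was 10 of 45 for the members and 3.97% of all 32851. The members were gathered as ATF4-linked genes, so their share is not independent of that choice. The stretches below come from 3 members with a match and the smallest unadjusted p among such members (Nupr1, Slc7a11 and Slc1a4), with Chac1 and Asns as known ATF4 targets, and capitals mark the match. Not all members that differed most held one: the windows of Slc6a9, whose p was smaller than that of Slc1a4, and of Sesn2 had no match.
Nupr1: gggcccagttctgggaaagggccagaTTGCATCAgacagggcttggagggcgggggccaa
Slc7a11: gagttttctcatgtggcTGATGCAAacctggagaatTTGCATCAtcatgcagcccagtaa
Slc1a4: agcctccagcgtgcctcctgcgTTGCATCA
Chac1: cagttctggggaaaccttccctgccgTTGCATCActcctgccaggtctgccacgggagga
Asns: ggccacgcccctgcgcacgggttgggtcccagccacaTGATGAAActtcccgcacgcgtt
In GRCm38.p6 they lie at chr7:126625547-126625606 (Nupr1, minus strand), chr3:50443637-50443696 (Slc7a11, minus), chr11:20332710-20332739 (Slc1a4, minus), chr2:119351023-119351082 (Chac1, plus) and chr6:7693210-7693269 (Asns, minus), each 5′ of or at the gene's start. Slc7a11 held 2 matches in opposite orientation, whose first bases lie 66 and 47 bases before the start. The matches of Nupr1, Chac1 and Asns begin 110, 193 and 23 bases before it, and that of Slc1a4 runs across it. A match is a description of letters and was not tested as a binding site.

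Values are CPM, counts normalised to library depth after scaling by TMM (a factor per library that corrects for composition). Total counts ran from 43346089 to 53630514 per library. Log2 fold changes compare STAT3+ CM with STAT3- CM, negative where STAT3+ CM was lower, and come from edgeR's quasi-likelihood test on all 14319 genes, with the standard error (SE) and a p adjusted over all of them by Benjamini and Hochberg. The labels do not say whether replicates were separate mice or cultures, so a p-value here covers no more than sample-to-sample spread, which may be technical. The cells held CD8 T cell transcripts in both groups: the 7 CD8 T cell markers summed to 2402 to 2630 CPM in STAT3- CM and 2425 to 3158 CPM in STAT3+ CM. All 7 had positive log2 fold changes, from 0.097 for Cd3e to 0.25 for Cd247, opposite in sign to most members, and Cd247 alone had groups that did not overlap. Over all genes STAT3- CM replicate 3 lay farthest out on the first principal component, at 26.6, and STAT3+ CM replicate 1 on the second, at -22.1. STAT3+ CM replicate 2 also lay out on both, at -17.1 and -10.8. The 6 measured of 10 dendritic cell markers all had negative log2 fold changes, with summed levels of 123 to 177 CPM in STAT3- CM and 87.6 to 112 in STAT3+ CM. The groups were apart for the MHC class II genes H2-Aa, H2-Eb1 and Cd74 and for Zbtb46, and Cd74 held the largest part of the sum, at 74.7 ± 22.1 against 38.9 ± 4.98 CPM (SD, n = 3). They overlapped for Itgax (-0.04) and Batf3 (-0.14); Flt3, Clec9a, Xcr1 and Siglech were not analysed here. Of 5 B cell markers Cd79b alone was measured, at 7.40 to 10.7 and 10.9 to 11.9 CPM. The 4 measured of 6 macrophage and monocyte markers summed to 3.70 to 10.3 and 3.63 to 5.60 CPM. The part of these markers and of other cells in the values that follow was not tested, and fewer cells of a type cannot be told apart from less RNA per cell.

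The members lay on the lower side in STAT3+ CM, most of all the transporters, but none passed edgeR's threshold. All 10 transporters had a negative log2 fold change, with a median of -0.33, while the 7 serine and one-carbon genes lay near 0, with a median of -0.10. By edgeR 0 of 40 members passed an adjusted p of 0.05, where 0% of all genes did. At an unadjusted p under 0.05 stood 10 members, all lower, where 3.64% of all genes stood at that level, 2.3% lower and 1.34% higher. DESeq2, run as an alternative, called 2 members, Nupr1 and Slc7a11, both lower, where it called 0.335% of all genes, 0.23% lower and 0.105% higher. limma-voom called 0 members and 0 genes. Of the 40 members, 33 (82.5%) had a negative log2 fold change, against 49.8% of all genes. In 11 members all 3 STAT3+ CM libraries lay below all 3 STAT3- CM libraries and in 0 they lay above; over all genes these shares were 4.18% and 3.78%, together 7.95%. The median log2 fold change was -0.17 for the members and 0.0008 for all genes tested. This list was described with results of the same data known, and members share regulators, so these counts carry no test.

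**Figure D1:**
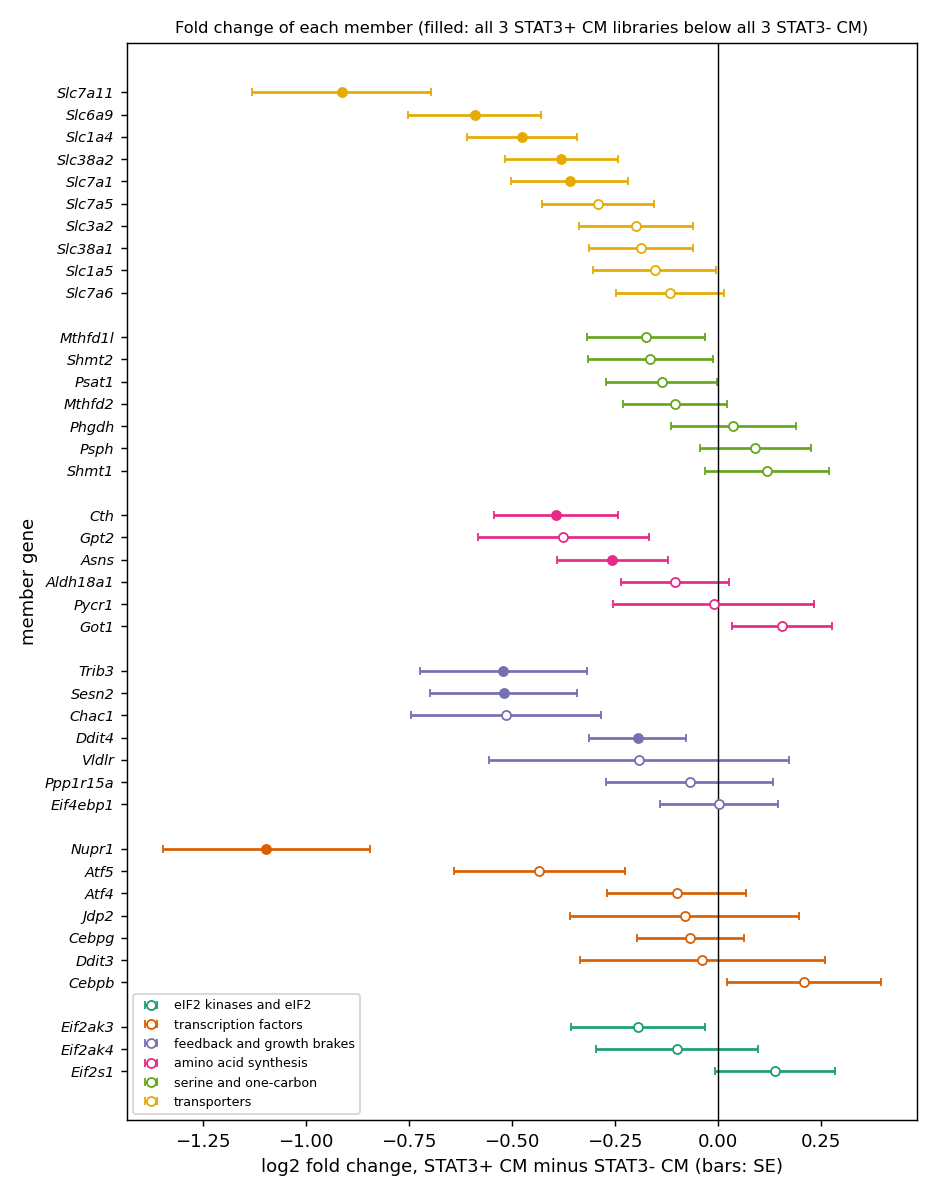
Log2 fold change of each of the 40 members (x axis, STAT3+ CM minus STAT3- CM, bars SE), grouped by role; filled points mark genes whose groups do not overlap. All 10 transporters lie left of 0, Nupr1 lies farthest left at -1.10, and all filled points are on the lower side.

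**Figure D2:**
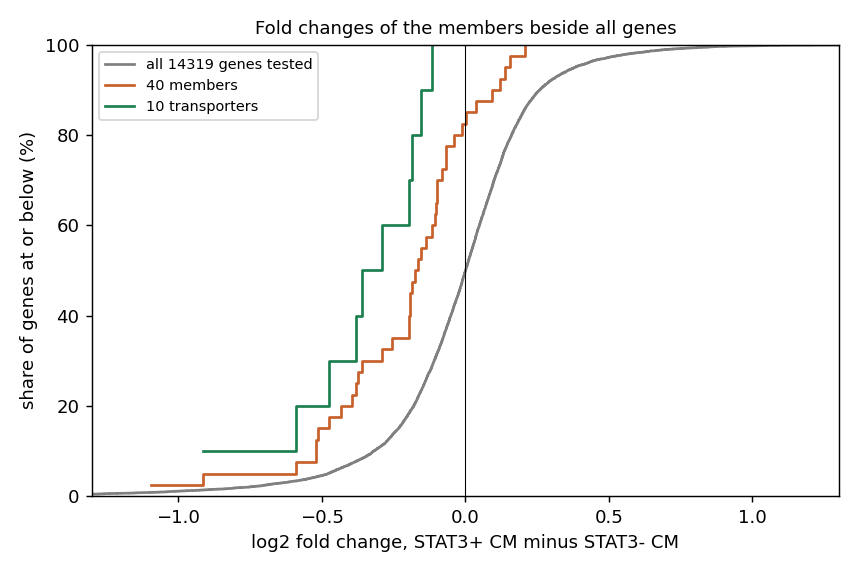
Share of genes (y axis, %) at or below each log2 fold change (x axis) for all 14319 genes tested, the 40 members and the 10 transporters. The curve of all genes crosses 0 near 49.8%, that of the members at 82.5%, and that of the transporters reaches 100% below 0.

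Among the transporters, those for cystine, glycine and small neutral amino acids showed the largest differences. Slc7a11, the cystine and glutamate exchanger xCT that feeds glutathione synthesis, was a low-count gene, with 5.78, 5.13 and 4.50 CPM with STAT3- CM and 2.80, 3.05 and 2.38 CPM with STAT3+ CM. Every STAT3+ CM library lay below every STAT3- CM library, and the mean was 53.4% of that in STAT3- CM. Its log2 fold change was -0.91 (SE 0.22, unadjusted p = 0.00168, edgeR adjusted p = 0.651), and DESeq2 gave an adjusted p of 0.0365. That DESeq2 call was lost when any 1 of 5 libraries was left out (adjusted p 0.0897 to 0.653) and stayed without STAT3- CM replicate 3 (0.0109), while edgeR's log2 fold change ran from -0.9995 to -0.81 over the same 6 omissions.

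Slc6a9, the glycine transporter GLYT1, stood at 21.2, 16.4 and 20.6 CPM with STAT3- CM and 12.2, 12.01 and 14.4 CPM with STAT3+ CM, with no overlap. Its log2 fold change was -0.59 (SE 0.16, edgeR adjusted p = 0.778). Slc1a4 (ASCT1), a carrier of alanine, serine, cysteine and threonine, stood at 26.9, 24.3 and 29.1 against 19.9, 18.0 and 19.8 CPM, again without overlap, and had a log2 fold change of -0.48 (SE 0.13, edgeR adjusted p = 0.860). In both genes the lowest STAT3- CM library lay above the highest STAT3+ CM library.

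Carriers of cationic and small neutral amino acids followed with smaller differences; their values by library were chosen for printing after they had been seen. Slc38a2 (SNAT2), which takes up glutamine, alanine and other small neutral amino acids, had 247, 190.2 and 215 CPM with STAT3- CM and 164, 153 and 183 CPM with STAT3+ CM (log2 fold change of -0.38, SE 0.14). Slc7a1 (CAT1), the main arginine and lysine carrier, had 217, 200.3 and 223 against 160.2, 142 and 196 CPM (-0.36, SE 0.14). Neither gene's groups overlapped, though STAT3+ CM replicate 3 lay close to the lowest STAT3- CM library in both. Slc38a1 (SNAT1) and Slc7a6 had overlapping groups, with log2 fold changes of -0.19 and -0.12.

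Slc7a5, Slc3a2 and Slc1a5, which serve leucine or glutamine transport and were by CPM among the higher members, had log2 fold changes of -0.29 to -0.15. Slc7a5, the light chain of the leucine carrier LAT1, stood at 368, 350.4 and 283 CPM with STAT3- CM and 290.4, 262 and 267 CPM with STAT3+ CM (log2 fold change of -0.29, SE 0.14, unadjusted p = 0.0579 by edgeR). Its heavy chain Slc3a2 (CD98), which also partners Slc7a11, stood at 268, 231 and 216 against 216, 226 and 181 CPM (-0.20, SE 0.14). Slc1a5 (ASCT2), a glutamine carrier, stood at 383, 321 and 304 against 253, 322 and 331 CPM (-0.15, SE 0.15). In each of these the groups overlapped, and STAT3- CM replicate 1 was the highest library. That library was also the highest of the 6 in 7 of 10 transporters, and STAT3+ CM replicate 2 was the lowest in 6.

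**Figure D3:**
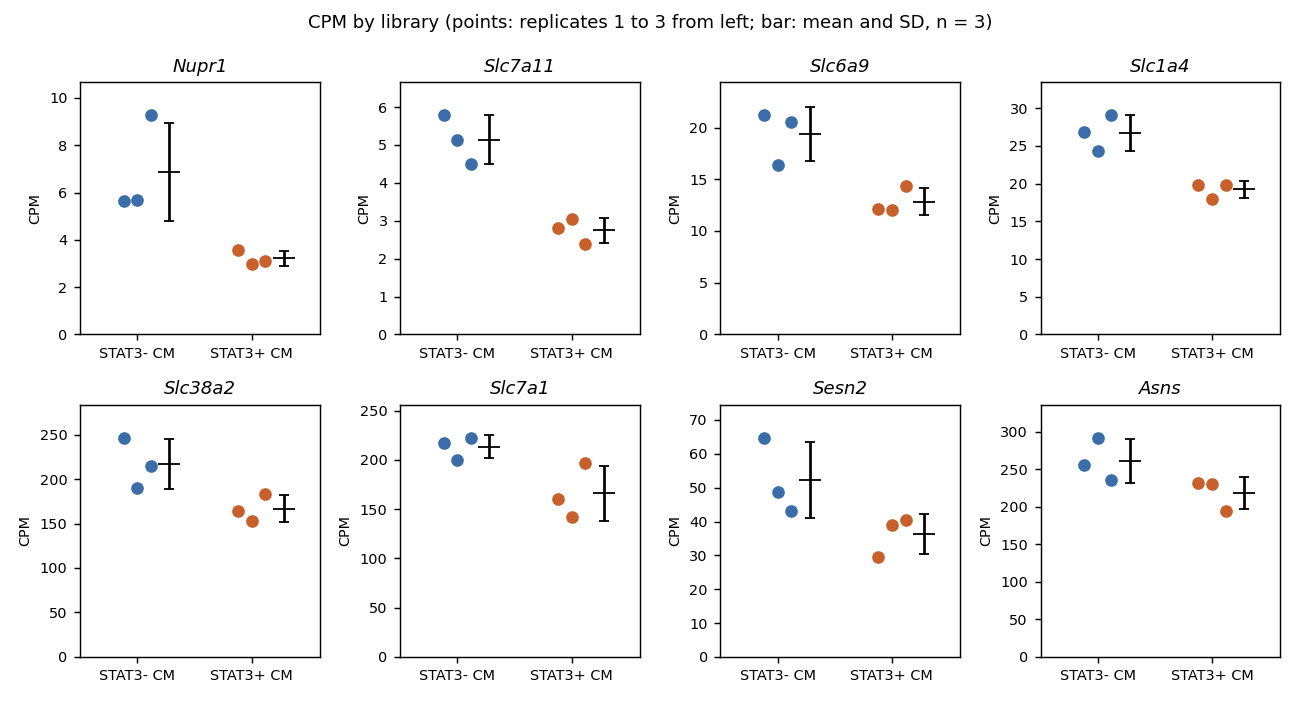
CPM (y axis, from 0) of 8 members in each library, with replicates 1 to 3 from left to right in each group and the mean ± SD (n = 3) beside them. All 8 are among the 11 of 40 members with groups apart, so in every panel the STAT3+ CM libraries lie below the STAT3- CM libraries by choice of gene. Slc38a2, Slc7a1, Sesn2 and Asns have the narrowest gaps, and Nupr1 has 1 high library in STAT3- CM.

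Of the 7 transcription factors 6 had negative values, with a median log2 fold change of -0.08, and Cebpb alone had a positive one. Atf4 stood at 572, 582 and 431 CPM with STAT3- CM and 421, 585 and 473 CPM with STAT3+ CM (log2 fold change of -0.10, SE 0.17, edgeR adjusted p = 0.989). The libraries of the groups interleave, and the activity of ATF4 is set largely at translation, which RNA counts do not show. Ddit3, which encodes the stress factor CHOP, stood at 15.9, 10.9 and 19.9 against 21.7, 14.3 and 9.66 CPM (-0.04, SE 0.30), and its sign depended on which library was included.

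Nupr1, a small stress-induced chromatin protein, had the largest difference of all 40 members. It stood at 5.63, 5.71 and 9.27 CPM with STAT3- CM and 3.57, 2.98 and 3.09 CPM with STAT3+ CM, with a log2 fold change of -1.10 (SE 0.25, unadjusted p = 0.00131, edgeR adjusted p = 0.563). DESeq2 called it lower (adjusted p = 0.0118); left-out fits gave 0.0292 to 0.251, with the call lost without STAT3+ CM replicate 2 (0.251) or replicate 3 (0.0591). The highest value came from STAT3- CM replicate 3, and without it edgeR's log2 fold change was -0.82 and the DESeq2 adjusted p 0.0439. That library also had the highest macrophage and monocyte marker sum (10.3 CPM). Cd68 made up most of that sum (9.53 CPM), while Adgre1, Lyz2 and Cd14 were higher in STAT3- CM replicate 1. Any part of such cells in the Nupr1 value was not tested. Atf5, a relative of ATF4 translated under the same control, stood at 22.2, 15.3 and 15.4 against 11.3, 16.4 and 11.5 CPM (-0.43, SE 0.21). Cebpb, a C/EBP partner of ATF4, stood at 16.7, 15.8 and 13.3 against 20.7, 18.9 and 13.4 CPM (0.21, SE 0.19). Both overlapped between groups, as did Cebpg (-0.07) and Jdp2 (-0.08).

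Upstream of these factors the eIF2 kinases and their substrate showed no separation. Eif2ak3 encodes PERK, the kinase of endoplasmic reticulum stress, and stood at 35.3, 36.9 and 48.9 against 38.4, 29.9 and 37.7 CPM, in the same order of groups (log2 fold change -0.19, SE 0.16). Eif2ak4 encodes GCN2, which senses uncharged tRNA, and stood at 27.6, 32.2 and 40.3 against 31.9, 23.4 and 38.1 CPM (-0.10, SE 0.20). Eif2s1, the eIF2 subunit that is phosphorylated, stood at 423, 467 and 339 against 438, 476 and 439 CPM (0.14, SE 0.15). STAT3- CM replicate 3 was the highest of the 6 libraries in both kinases and the lowest in Eif2s1.

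Feedback genes and brakes on growth were grouped in 1 role with Vldlr, a gene of neither kind. In this role 6 of 7 members lay lower, with a median log2 fold change of -0.19. Sesn2, a leucine sensor that restrains the growth kinase mTORC1, stood at 64.8, 48.8 and 43.2 CPM with STAT3- CM and 29.6, 39.1 and 40.5 CPM with STAT3+ CM (-0.52, SE 0.18, unadjusted p = 0.0154 by edgeR). Trib3, a pseudokinase that dampens ATF4, stood at 37.9, 32.1 and 29.6 against 26.9, 26.8 and 15.9 CPM (-0.52, SE 0.20). Chac1, which degrades glutathione, stood at 19.1, 13.2 and 13.4 against 9.85, 14.1 and 8.23 CPM (-0.51, SE 0.23). Sesn2 and Trib3 did not overlap between groups, whereas STAT3+ CM replicate 2 lay among the STAT3- CM libraries for Chac1. STAT3- CM replicate 1 was the highest library in all 3 genes.

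The remaining members of that role lay closer to 0. Ddit4 (REDD1), another mTORC1 inhibitor, had groups that did not overlap, at 159.7 ± 9.64 and 139.5 ± 8.20 CPM (mean ± SD, n = 3). The lowest STAT3- CM library, at 148.6 CPM, lay next to the highest STAT3+ CM library, at 147 CPM. The log2 fold change of Ddit4 was -0.19 (SE 0.12). Ppp1r15a (GADD34), which directs dephosphorylation of eIF2, had -0.07, the translation repressor gene Eif4ebp1 had 0.0032, and Vldlr, a lipoprotein receptor gene near the detection floor at 0.486 to 1.28 CPM, had -0.19.

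**Figure D4:**
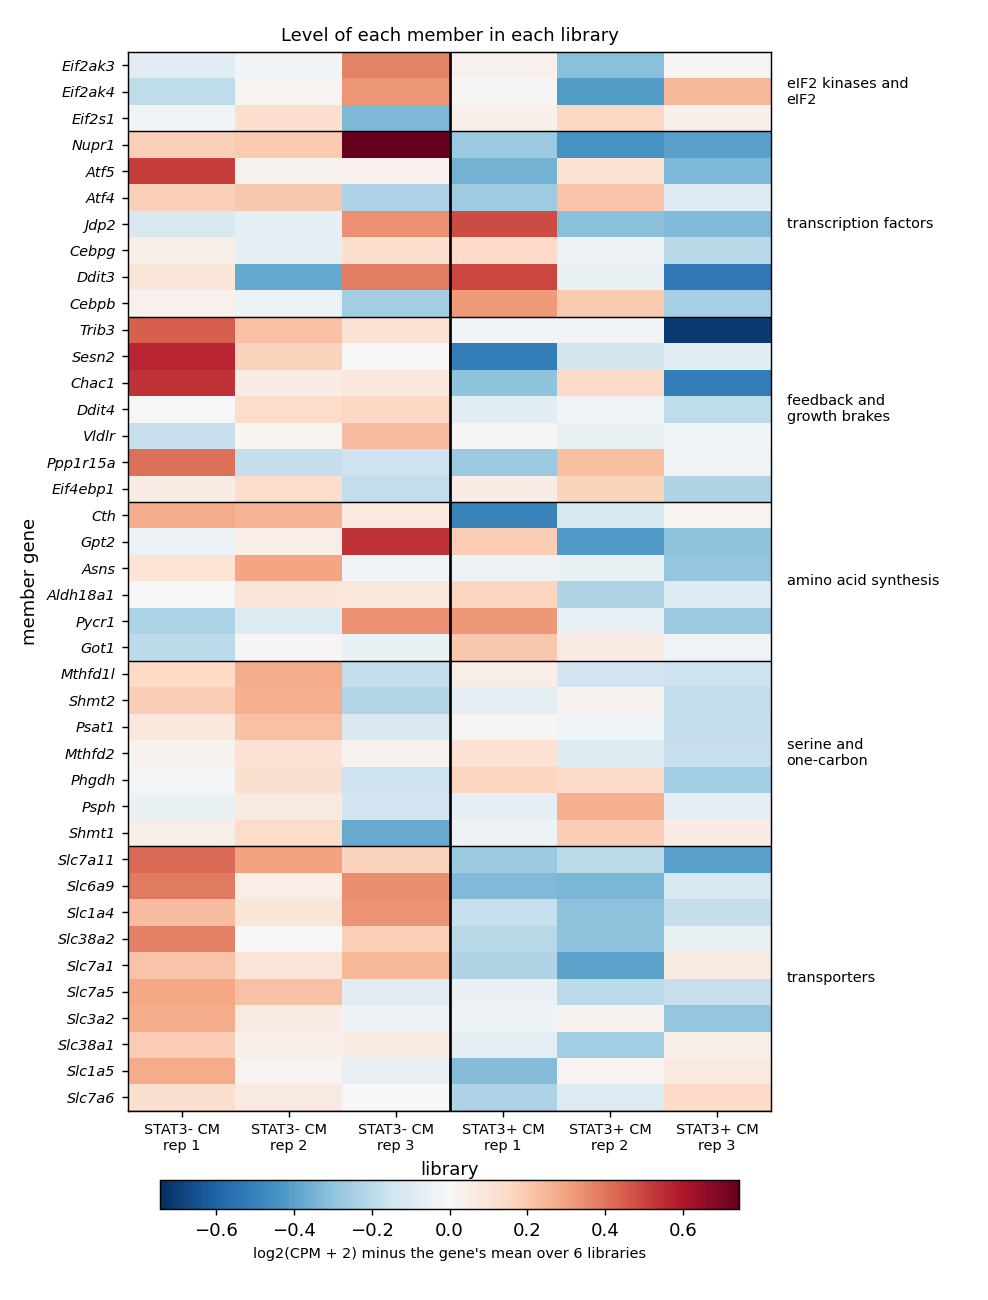
Each row is a member and each column a library; colour gives log2(CPM + 2) minus the gene's mean over the 6 libraries, red above and blue below. Transporters are red in STAT3- CM and blue in STAT3+ CM in most cells, while Jdp2, Ddit3, Pycr1 and Cebpb are red in STAT3+ CM replicate 1.

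Of the 6 enzymes that make amino acids 5 had negative values, with a median log2 fold change of -0.18. Asns, asparagine synthetase and a standard ATF4 target, stood at 256, 292 and 235 CPM with STAT3- CM and 232, 229.9 and 194 CPM with STAT3+ CM (log2 fold change of -0.26, SE 0.13, unadjusted p = 0.0853 by edgeR). Its groups did not overlap, but 235 and 232 CPM lay next to each other. Cth, cystathionine gamma-lyase of the route from methionine to cysteine, stood at 128, 126 and 111 against 74.0, 97.0 and 106 CPM (-0.39, SE 0.15), again without overlap. Gpt2, the mitochondrial alanine transaminase, stood at 35.5, 38.1 and 54.2 against 42.2, 27.0 and 29.4 CPM (-0.38, SE 0.21), and its groups overlapped. The proline synthesis genes Aldh18a1 (-0.10) and Pycr1 (-0.01) lay near 0, and Got1, the cytosolic aspartate transaminase, was the only enzyme of this role with a positive value (0.16, SE 0.12).

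Serine and one-carbon enzymes showed the smallest differences of the 6 roles by range, from -0.17 to 0.12, and none of the 7 had groups apart. Phgdh, the first enzyme of serine synthesis from glucose, stood at 572, 626 and 516 CPM with STAT3- CM and 642, 635 and 482 CPM with STAT3+ CM (log2 fold change of 0.04, SE 0.15). Psat1, the next enzyme, stood at 528, 578 and 463 against 500.3, 487 and 440.2 CPM (-0.14, SE 0.13). Psph, which completes the pathway, had 0.09. Across all 3 the lowest library of STAT3- CM was replicate 3.

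Mitochondrial folate enzymes lay slightly below 0. Shmt2, which splits serine into glycine and a one-carbon unit, stood at 529, 561 and 401 CPM with STAT3- CM and 444, 475 and 411 CPM with STAT3+ CM (log2 fold change of -0.16, SE 0.15). Mthfd2 stood at 353, 374 and 353 against 374, 324 and 307 CPM (-0.10, SE 0.13). Mthfd1l, which releases formate to the cytosol, stood at 162, 177 and 129 against 152, 133 and 131 CPM (-0.17, SE 0.14). The cytosolic counterpart Shmt1 had a positive value of 0.12 (SE 0.15), with STAT3- CM replicate 3 the lowest library at 112 CPM. None of the 7 passed an unadjusted p of 0.05 by edgeR.

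Levels between genes were compared per length, as the mean CPM of all 6 libraries per kilobase of exon in the GRCm38 annotation, a build other than the submitters'. On that scale Phgdh (233) and Atf4 (216) were highest, followed by Shmt2 (151), Psat1 (117) and Mthfd2 (99.6). Among carriers Slc7a5 (81.8), Slc1a5 (76.5) and Slc3a2 (63.2) led, while Slc6a9 (3.13) and Slc7a11 (0.283) were near the bottom of the 39 members with a length. The members with the largest fold changes, Nupr1 (2.01) and Slc7a11, were therefore among the 3 lowest by this measure, and Ddit3 was left out for want of a length.

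Library by library, the members' mean deviation from each gene's 6-library mean, on the log2(CPM + 2) scale, was 0.139, 0.081 and 0.067 for the STAT3- CM libraries, against -0.048, -0.078 and -0.161 for STAT3+ CM. The same mean over all genes tested lay between -0.023 and 0.011. For transporters it was 0.277, 0.094 and 0.113 against -0.191, -0.205 and -0.089, without overlap. For serine and one-carbon genes it was 0.060, 0.169 and -0.164 against 0.021, 0.049 and -0.136, with overlap. STAT3+ CM replicate 3 was the lowest library in 14 members (35%), against 10.8% of all genes, and STAT3- CM replicate 1 the highest in 13 (32.5%), against 15.6%. Without STAT3+ CM replicate 3, 29 of the 40 members had negative values, and all 10 transporters still did.

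**Figure D5:**
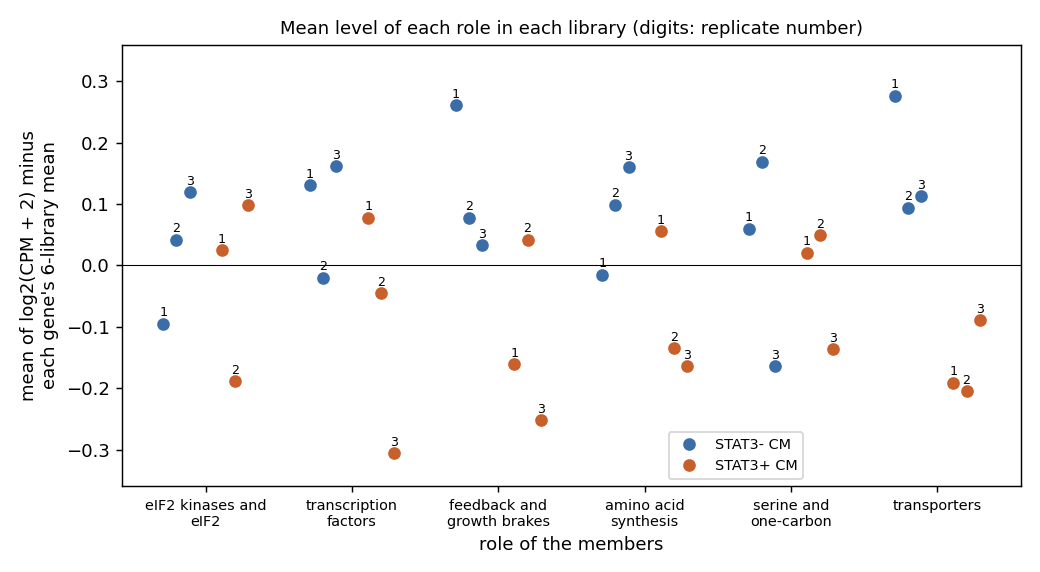
Mean of log2(CPM + 2) minus each gene's 6-library mean (y axis) for each role (x axis), 1 point per library, numbered by replicate. The transporters lie between 0.094 and 0.277 in STAT3- CM and between -0.205 and -0.089 in STAT3+ CM, the only role of the 6 in which the groups do not overlap.

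Members with a response element match and those without were both on the lower side. Of the 10 with a match 9 had negative values (median log2 fold change -0.37), and 5 had groups apart: Asns, Nupr1, Slc1a4, Slc7a11 and Trib3. Of the 25 with a window and no match 20 had negative values (median -0.12), and 5 had groups apart. Among all tested genes with a window, 54.3% of 282 with a match and 50.3% of 9980 without were negative, with medians of -0.022 and -0.0016. Groups were apart and lower in 4.18% of all genes tested. Whether the match bears on the fold changes was not tested. The matches are not limited to members that differed, since Pycr1, Jdp2 and Got1 also held one.

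Other genes of the pathway, from lists that do not include the members, lay around 0 with a few exceptions. Of 20 aminoacyl-tRNA synthetases, of which ATF4 induces only some, 10 had negative values with a median log2 fold change of -0.03. The list was not split into synthetases that ATF4 induces and others. Aars, the alanine enzyme, had -0.25 with groups apart, at 281 ± 25.9 and 236 ± 10.7 CPM (SD, n = 3), and Iars had -0.21. Of 13 other eIF2 and eIF2B genes 4 had negative values (median 0.02), Gcn1 (-0.18) and Ppp1r15b (-0.17) having the smallest p. Of 15 folate and glycine cleavage genes 8 had negative values (median -0.03). Aldh1l2, a mitochondrial folate enzyme, stood at 6.71, 6.96 and 6.26 CPM with STAT3- CM and 3.90, 3.72 and 5.15 CPM with STAT3+ CM (-0.63, SE 0.20). Of 24 genes of amino acid sensing by mTORC1, 12 had negative values (median -0.0082), with Rragd at -0.57 and Lamtor4 at 0.25. By edgeR 0 genes of any of these lists passed. At an unadjusted p under 0.05 stood Aldh1l2, 1 of the 15 in its list, and Rragd, 1 of 24. In the lists that follow 2 of 23 targets and 1 of 13 transporters did, where 3.64% of all genes stood at that level.

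Further carriers and targets of ATF4 included 1 gene called by DESeq2. Of 23 other ATF4 and CHOP targets tested 15 had negative values (median log2 fold change -0.10). Stc2, a secreted glycoprotein induced by stress, stood at 20.4, 21.8 and 17.6 CPM with STAT3- CM and 11.6, 12.7 and 9.97 CPM with STAT3+ CM, with no overlap. Its log2 fold change was -0.81 (SE 0.16, unadjusted p = 0.000424, edgeR adjusted p = 0.434), and DESeq2 called it lower (adjusted p = 0.00441). Ndrg1 had -0.60 (SE 0.22), with 63.8 CPM in STAT3- CM replicate 1 above 27.2 to 37.6 in the other 5 libraries. Of 13 other amino acid transporters tested 10 had negative values, but a median of -0.08. There Slc43a1 (LAT3), a carrier of branched-chain amino acids, lay on the opposite side from the member carriers, at 2.05, 2.47 and 2.75 CPM with STAT3- CM and 4.63, 3.34 and 3.99 CPM with STAT3+ CM (0.72, SE 0.23, edgeR adjusted p = 0.989). Its relative Slc43a2 (LAT4) had 0.22, also without overlap.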

How the data were processed

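Polyadenylated RNA of 6 libraries was measured, 3 per group. The authors deposited whole-number read counts per gene. Per the submitters' processing notes the build was GRCm39 and the tools included TopHat2 2.0.10 with Bowtie 1.0.0, Cufflinks 2.2.1, SAMtools 0.1.19 and FastQC; which program counted reads, with which annotation and strand setting, is not given in the sources used here. The lowest gene total over the 6 libraries was 40. Columns were matched to samples by description. Counts were filtered with filterByExpr, which left out 162 genes, scaled by TMM and compared without a block by the quasi-likelihood F test (robust option) of edgeR 4.0.16 in R 4.3.3, with Benjamini-Hochberg adjustment over all genes and a threshold of 0.05. Each SE was obtained by dividing the size of the fold change (log2) by the root of its F statistic. DESeq2 1.42.0 and limma-voom (limma 3.58.1) were alternatives, with other scalings, filters, the older quasi-likelihood method, a replicate block and each library left out. The procedures were run on simulated counts in which genes varied independently, without shared shifts between libraries. That run cannot show how the procedures perform on these libraries, since its setting lacks such shifts. No replicate pair within a group agreed within sampling noise. The members and lists were chosen with earlier results of these data known. Values per library were given for members called by edgeR or DESeq2, the 3 of each role with the smallest p and 9 preset genes, and 2 genes were named per pathway list, of which 1 is not reported here. Promoter sequences are RefSeq's (GRCm38.p6), and coordinates refer to that build only.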

Additional observations from a re-analysis of the deposited data

How the results depend on the processing

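Over 16 alternatives edgeR called 0 members in each edgeR fit, and all 10 transporters kept negative values in all 16. The count of members with negative values ran from 29 (without STAT3+ CM replicate 3) to 35 (library totals only). DESeq2 called 48 genes in all and 2 members. Leaving out 1 library gave 0 to 18 genes by edgeR, 18 without STAT3- CM replicate 3 and 1 without STAT3- CM replicate 1, and a median log2 fold change of the members of -0.23 to -0.15. An alternative chosen after seeing the data omitted STAT3- CM replicate 3 and STAT3+ CM replicate 1, the libraries farthest out on the first and second components. STAT3+ CM replicate 2 was kept. With these omissions edgeR called 10 genes and 0 members, and Eif2ak4 turned to 0.042, Cebpb to -0.0095 and Phgdh to -0.10. Phgdh had -0.0087 with library totals only. With 1 library left out, log2 fold changes that changed sign ran from -0.27 to 0.069 for Eif2ak4, -0.24 to 0.0015 for Atf4, -0.39 to 0.21 for Ddit3 and -0.032 to 0.16 for Phgdh, and Cebpb, which kept its sign there, ran from 0.079 to 0.38; the cause was not tested. The other 20 of 25 named members kept their sign in all 16. Left-out fits with DESeq2, added after its calls were seen, also called Slc7a1 (0.0426) and Slc6a9 (0.0454) without STAT3+ CM replicate 3. Members with groups apart numbered 10 to 12 lower and 0 higher over 5 scalings and filters; this count was not run with 1 library left out. With the replicate number as a block edgeR called 0 genes and the members' median was -0.16. After each group's mean was removed, libraries of equal number had correlations across genes of -0.352, 0.412 and 0.178. STAT3- CM replicate 1 correlated best with STAT3+ CM replicate 2 (0.488). With 3 libraries per group these values cannot settle whether equal numbers are pairs. Vldlr had few counts (22 to 59 per library), and Slc7a11 (127 to 262) and Nupr1 (124 to 428) had low ones. Their SEs were 0.36, 0.22 and 0.25, while Ddit3 and Jdp2, with more counts, had 0.30 and 0.28. How far low counts limit precision was not tested.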
